A study of Mus musculus with 8 samples.

Results

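The genes described here are 42 regulators of the cell cycle and of growth arrest, taken by symbol from the 21887 protein-coding genes of the mouse GRCm38.p6 (mm10) annotation. They comprise 5 inhibitors of cyclin-dependent kinases (CDKs), 4 CDKs, 8 cyclins, 8 E2F factors and pocket proteins, 7 replication proteins, 5 mitotic and proliferation genes, 2 Myc factors, and 3 genes of the p53 and DNA damage response. They were chosen by role and symbol, with earlier results of these data known.

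Open chromatin was mapped by ATAC-seq, which uses the transposase Tn5 to insert sequencing adapters where DNA is exposed. Type 1 and type 2 conventional dendritic cells (cDC1 and cDC2), antigen-presenting cells that prime T cells, were sorted from mouse spleen after a lineage gate, as CD64- cells that were XCR1+CD11b- (cDC1) or XCR1-CD11b+ (cDC2). The control mice, labelled WT, were HDAC1 floxed, and the mice labelled KO were HDAC1 Mx1-Cre. All mice, controls included, had received the synthetic double-stranded RNA poly I:C to switch on recombination, and cells were sorted 2 weeks later. Each of the 4 groups (cDC1 WT, cDC1 KO, cDC2 WT, cDC2 KO) had 2 libraries. Mx1-Cre is driven by an interferon-inducible promoter that acts in many cell types, so the deletion is not confined to dendritic cells. The labels do not say whether the 2 libraries of a group came from separate animals, so p-values here measure the spread between libraries, which may be technical.

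Progress through the cell cycle is driven by cyclins bound to CDKs, which phosphorylate the pocket proteins (Rb1, Rbl1, Rbl2) and so release E2F factors to switch on replication and mitosis genes. CDK inhibitors hold this machinery back, and p53 induces several arrest genes, among them Cdkn1a (p21), Gadd45a and its own inhibitor Mdm2. HDAC1 removes acetyl groups from histones and represses Cdkn1a in several proliferating cell types. Conventional dendritic cells arise from dividing precursors in bone marrow and spleen and keep a limited capacity to divide themselves.

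The deposited values are summits, the points of highest signal in the peaks that the authors called in each library, with a score. To make the lists comparable, every list was cut to the length of the shortest, keeping the best scored summits. A summit was given to the nearest protein-coding gene at most 50 kb away, and the number of summits per gene is the measure used below. A gene at 0 can have closed chromatin, a summit that was nearer to a neighbouring gene, or one scored too low to stay in the list. In sorted populations, a site open in fewer cells and a site less open in each cell cannot be told apart. The longest deposited list held 96031 summits. The lists give no read counts, so sequencing depth is unknown. Library values are given throughout in the order WT 1, WT 2, KO 1, KO 2, first for cDC1 and then for cDC2. Hdac1 itself had 2, 1, 1 and 1 summits in cDC1 and 1, 2, 1 and 1 in cDC2, a count that cannot check the deletion. The 10 cDC1 marker genes summed to 85 to 90 summits in cDC1 and 58 to 64 in cDC2, and the 10 cDC2 markers to 52 to 58 and 69 to 72. Xcr1, on which the cells were sorted, was at 0 in all 8 libraries. Of the markers of other cells, the 6 progenitor genes summed to 38 to 43 summits in cDC1 and 50 to 57 in cDC2. B cell markers ranged from 16 to 22 and T cell markers from 8 to 16 across the 8 libraries, with Cd79a at 0 in every cDC1 library and at 1 in every cDC2 library, and Cd3g at 0 in all.

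Promoters are shown first because most of these genes kept a summit there in every library. RefSeq promoter windows (GRCm38.p6, 250 bases before to 50 after the transcription start) were available for 33 of the 42 genes, in 40 windows. Of the 33 genes, 29 (87.9%) had a summit within 500 bp of a start in all 8 libraries, against 46.9% of the 17492 protein-coding genes in the same table. The windows below belong to the genes on which the later results turn. Capitals mark matches on either strand to an E2F motif (TTTCCCGC, TTTGGCGC, TTTCGCGC or TTTGCCGC), to the cell cycle homology region (CHR, TTTGAA), to the CCAAT box (CCAAT) or to the p53 half-site consensus, and each sequence runs 5′ to 3′ along the gene's strand.
Cdk1 (chr10:69352863-69353162, minus strand): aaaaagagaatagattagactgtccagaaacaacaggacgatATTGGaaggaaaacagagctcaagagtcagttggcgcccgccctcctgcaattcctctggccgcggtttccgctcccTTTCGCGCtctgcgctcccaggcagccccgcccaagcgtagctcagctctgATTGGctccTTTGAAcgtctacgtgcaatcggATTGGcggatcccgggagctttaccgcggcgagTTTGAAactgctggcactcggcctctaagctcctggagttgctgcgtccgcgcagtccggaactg
Mcm3 (chr1:20820263-20820562, minus strand): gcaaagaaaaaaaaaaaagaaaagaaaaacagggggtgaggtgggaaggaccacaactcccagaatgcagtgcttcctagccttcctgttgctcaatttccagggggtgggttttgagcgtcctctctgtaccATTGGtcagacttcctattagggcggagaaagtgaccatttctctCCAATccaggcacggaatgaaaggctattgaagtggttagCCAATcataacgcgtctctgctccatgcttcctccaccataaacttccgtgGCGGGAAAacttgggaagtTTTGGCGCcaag
Mcm7, first start (chr5:138171834-138172133, minus strand): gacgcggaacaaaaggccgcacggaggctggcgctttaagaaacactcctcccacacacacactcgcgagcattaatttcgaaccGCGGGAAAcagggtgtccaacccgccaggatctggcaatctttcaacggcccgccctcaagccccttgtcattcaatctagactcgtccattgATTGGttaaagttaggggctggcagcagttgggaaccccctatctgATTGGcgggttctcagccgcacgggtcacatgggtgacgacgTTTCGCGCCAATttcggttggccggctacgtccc
Mcm7, second start (chr5:138171217-138171516, minus strand): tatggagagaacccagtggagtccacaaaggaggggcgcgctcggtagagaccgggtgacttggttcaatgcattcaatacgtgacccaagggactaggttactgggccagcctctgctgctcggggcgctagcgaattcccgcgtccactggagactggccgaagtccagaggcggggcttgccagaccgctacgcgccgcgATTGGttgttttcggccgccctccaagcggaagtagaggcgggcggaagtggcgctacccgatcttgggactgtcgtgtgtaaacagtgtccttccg
Cdkn1a, first start (chr17:29090729-29091028, plus strand): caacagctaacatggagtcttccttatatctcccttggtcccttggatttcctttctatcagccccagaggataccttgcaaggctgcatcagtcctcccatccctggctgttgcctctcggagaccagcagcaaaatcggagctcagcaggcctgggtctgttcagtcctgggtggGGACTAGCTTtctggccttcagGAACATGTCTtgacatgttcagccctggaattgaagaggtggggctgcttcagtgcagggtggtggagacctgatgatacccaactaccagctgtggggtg
Cdkn1a, internal start (chr17:29093519-29093818, plus strand): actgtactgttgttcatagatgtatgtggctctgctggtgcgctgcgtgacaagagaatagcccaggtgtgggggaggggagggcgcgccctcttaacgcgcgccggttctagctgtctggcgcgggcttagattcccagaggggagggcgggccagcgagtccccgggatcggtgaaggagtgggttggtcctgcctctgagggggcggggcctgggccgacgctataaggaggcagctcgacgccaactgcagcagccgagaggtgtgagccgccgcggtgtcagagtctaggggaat
Gadd45a (chr6:67037358-67037657, minus strand): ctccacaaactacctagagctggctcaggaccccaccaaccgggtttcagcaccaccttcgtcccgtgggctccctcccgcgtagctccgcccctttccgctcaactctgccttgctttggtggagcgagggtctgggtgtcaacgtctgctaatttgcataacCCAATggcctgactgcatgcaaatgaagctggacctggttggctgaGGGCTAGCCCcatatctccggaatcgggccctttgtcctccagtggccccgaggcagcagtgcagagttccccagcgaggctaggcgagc

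In the Cdk1 window, a promoter known for cell cycle control by CHR and CCAAT elements, 1 E2F match, 2 CHR matches and 3 CCAAT matches were found. The Mcm3 window held 2 E2F and 3 CCAAT matches, and the upstream Mcm7 window 2 E2F and 3 CCAAT matches, where the downstream E2F match shares a base with a CCAAT match. The first Cdkn1a window held 2 p53 half-site matches and the internal one none, and the Gadd45a window held 1. Over all windows, an E2F match was present in 12 of 40 windows of these genes (30%) and in 2.85% of the 21263 windows of protein-coding genes. A CHR match was present in 27.5% and 16% of windows, a CCAAT match in 67.5% and 38.2%, and a p53 half-site match in 10% and 7.37%. Among windows with a summit within 500 bp of the start in all 8 libraries, an E2F match was present in 29% of 31 windows of these genes and in 4.5% of 9245. A match is a stretch of letters and was not tested for binding.

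**Figure D1:**
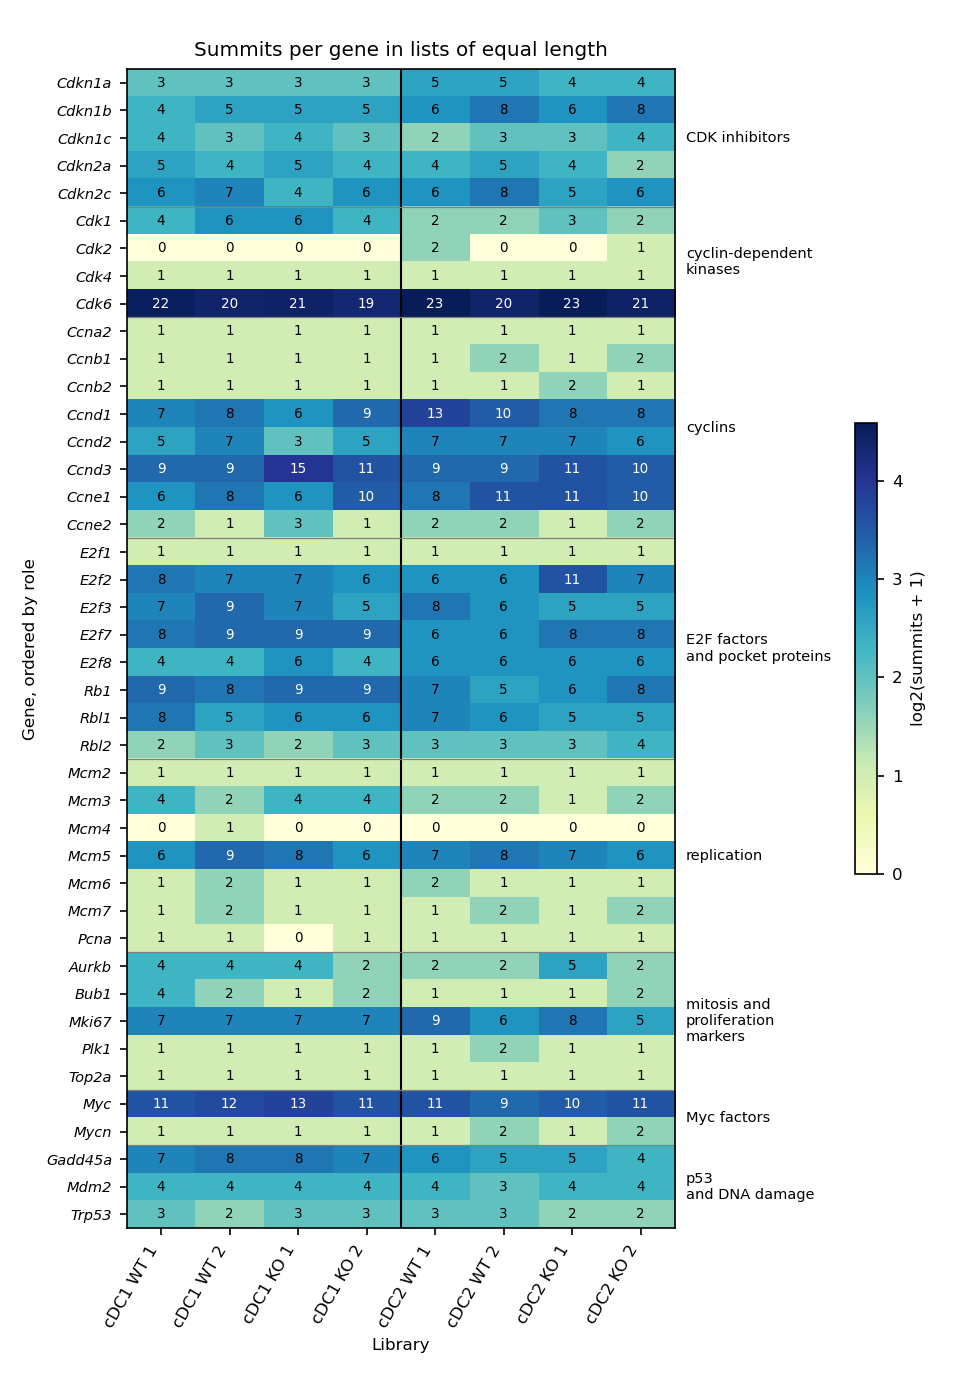
Summits per gene (numbers in the cells; colour, log2 of summits + 1) for the 42 genes, in rows ordered by role, and the 8 libraries, in columns. Genes such as Cdk4, E2f1, Mcm2 and Top2a had 1 summit in every library, whereas Cdk6 had 19 to 23.

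The number of summits ranged from 0 to 23 across genes and libraries, and the 42 genes together had 180 to 191 summits per library, 0.292% to 0.309% of each list. Of the 42 genes, 39 had a summit in every library, and 5 had the same number in all 8. Differences were tested with limma on log2(summits + 1) over the 14068 genes that averaged 1 summit or more per library, with Benjamini-Hochberg adjustment over all of them and a threshold of 0.05. The 39 genes with a summit in every library were tested, and Cdk2, Mcm4 and Pcna fell under the minimum. Between subsets over both genotypes, 2 of the 39 genes had fewer summits in cDC2, Cdk1 and Mcm3, against 5.66% of all genes tested. None had more, against 4.7%. The median difference of the 39 genes was 0.00 on the log2 scale, as it was over all genes tested. In WT alone 0 of 39 passed (3.71% of all genes) and in KO alone 0 of 39 (1.75%), with 4 genes (10.3%) at an unadjusted p under 0.05 in each, against 18.2% and 14.8% of all genes tested. Other counts came when 1 library was left out. In WT they were 2 without any 1 of the 4 KO libraries and 1 without cDC1 WT 1 or WT 2, and in KO they were 1 without any 1 of the 4 WT libraries or cDC2 KO 2. The share of all genes called with a library left out is not given. With all 8 libraries, Cdk1 differed by -0.98 in WT (limma adjusted p = 0.0667) and by -0.77 in KO (0.199), Mcm3 by -0.37 and -1.03 (0.0954 in KO).

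**Figure D2:**
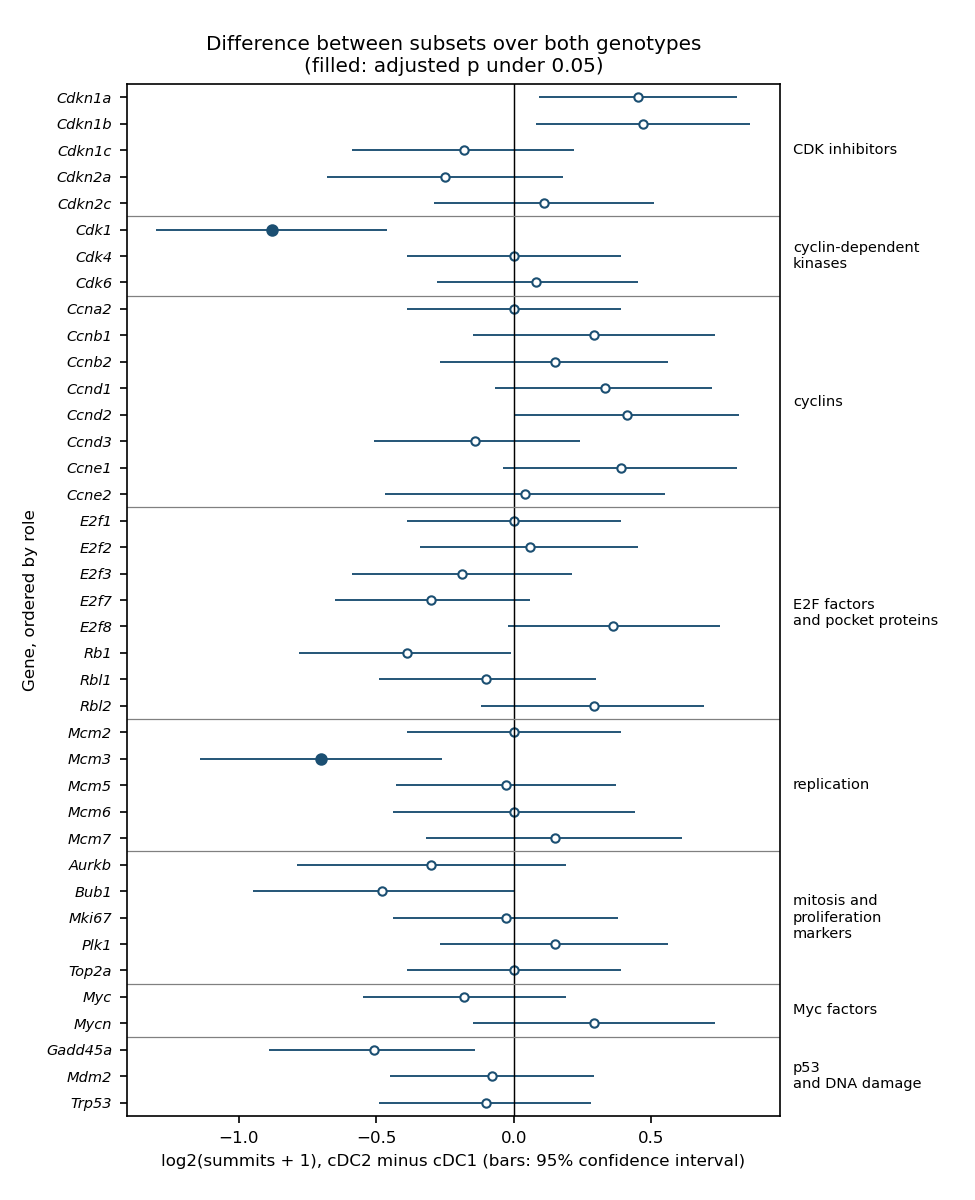
Difference in log2(summits + 1) between cDC2 and cDC1 over both genotypes (x axis) for the 39 genes tested (y axis, by role), with 95% confidence intervals from limma. Filled points, Cdk1 at -0.88 and Mcm3 at -0.70, passed the adjusted threshold.

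Cdk1 encodes the kinase that drives entry into mitosis. It had 4, 6, 6 and 4 summits in cDC1 and 2, 2, 3 and 2 in cDC2. Every cDC1 library lay above every cDC2 library. The difference was -0.88 (log2, SE 0.20, 95% confidence interval -1.30 to -0.46, limma adjusted p = 0.011). The promoter summit, 33 to 107 bp upstream of the start, was in all 8 libraries, at a list percentile of 95.5 to 98.7 (100 is the strongest summit). A site 6.5 kb upstream (chr10:69359384-69359398) had a summit in all 4 cDC1 libraries, at list ranks of 11961 to 14207, and in no cDC2 library. The site 13.7 kb beyond the other end of the gene (chr10:69321360-69321466) was in all 8 libraries, at list ranks of 37199 to 51644 in cDC1 and 17033 to 23610 in cDC2. When the lists were cut to 0.5 of that length (the shorter lists), Cdk1 therefore had 2 summits in every library: the promoter and the upstream site in cDC1, the promoter and the site beyond the other end in cDC2. Its difference over the full lists fell to -0.29 (adjusted p = 0.43) when summits within 5 kb of the gene were counted, and its adjusted p was 0.0686 in plain limma.

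Mcm3, a subunit of the MCM helicase that opens DNA at replication origins, had 4, 2, 4 and 4 summits in cDC1 and 2, 2, 1 and 2 in cDC2. The ranges met at 2 summits. The difference was -0.70 (log2, SE 0.21, 95% confidence interval -1.14 to -0.26, limma adjusted p = 0.0464). Here too the promoter held a summit in all 8 libraries, at a list percentile of 97.4 to 99.3. A site inside the gene (chr1:20817196-20817346) was found in the 4 cDC1 libraries and no cDC2 library, at ranks of 28214 to 57757. A pair of sites 28.3 and 34.0 kb outside the gene had summits in cDC1 WT 1, KO 1 and KO 2. The Mcm3 call was lost under 10 of 16 alternatives, among them the shorter lists (-0.15, adjusted p = 0.843) and summits within 10 kb of the gene (-0.15, adjusted p = 0.772). It was also lost without cDC1 KO 1 (adjusted p = 0.0511), cDC1 KO 2 (0.051), cDC1 WT 1 (0.157) or cDC2 KO 1 (0.135), by the same limma fit.

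**Figure D3:**
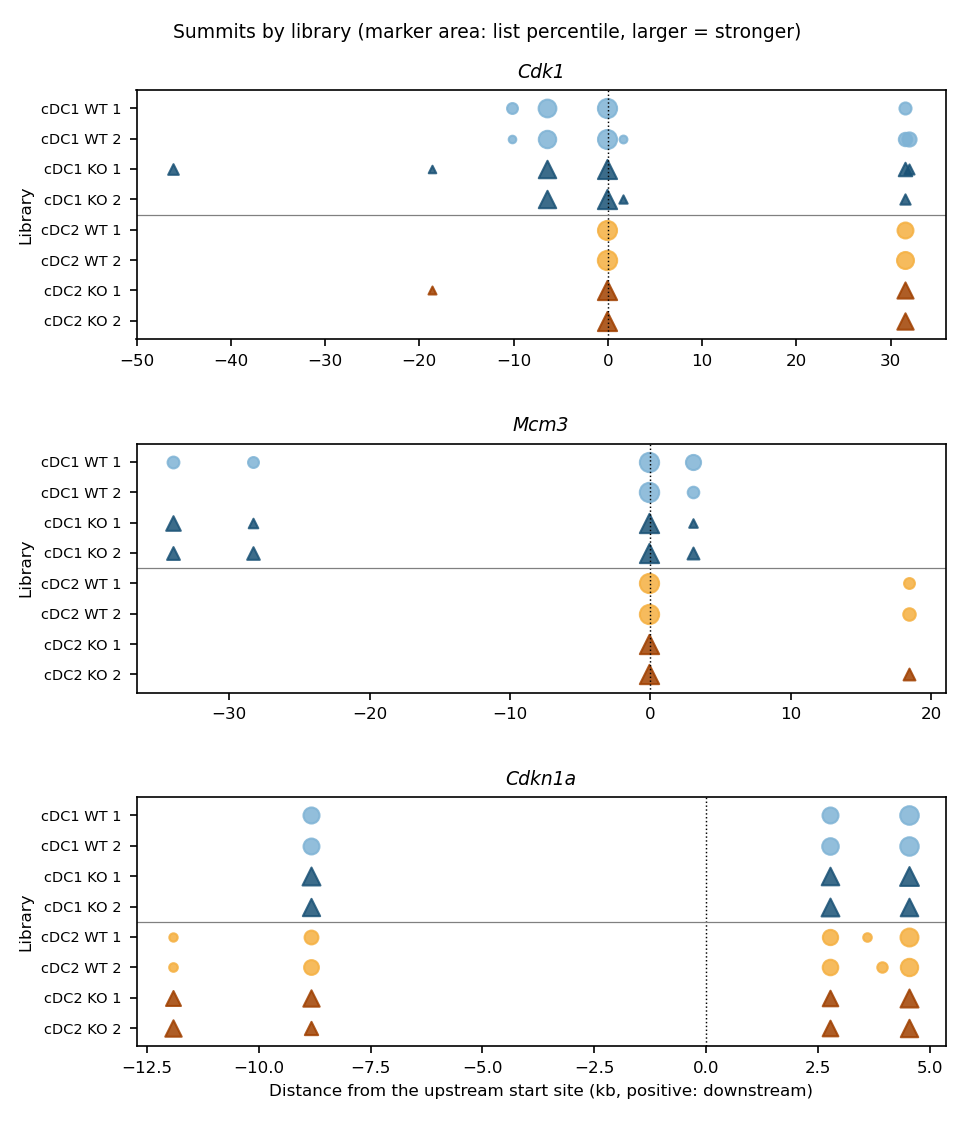
Summits of Cdk1, Mcm3 and Cdkn1a by distance from the upstream transcription start (x axis, kb, dotted line at 0) in each library (y axis); marker area grows with the list percentile of the summit. The promoter summits of Cdk1 and Mcm3 were in all 8 libraries, and the summits 6.5 kb upstream of Cdk1 in the 4 cDC1 libraries.

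Among the 5 CDK inhibitors no gene passed between subsets. Cdkn1a had 3, 3, 3 and 3 summits in cDC1 and 5, 5, 4 and 4 in cDC2, and Cdkn1b (p27) had 4, 5, 5 and 5 and then 6, 8, 6 and 8. For both, every cDC2 library lay above every cDC1 library; these were the 2 of 39 tested genes with that order, against 4.75% of all genes. The differences were 0.45 (SE 0.17, limma adjusted p = 0.108) for Cdkn1a and 0.47 (SE 0.18, adjusted p = 0.127) for Cdkn1b, and both passed when testing was limited to the 6153 genes averaging 3 or more summits (adjusted p = 0.0369 and 0.0495). Cdkn1a also passed in plain limma, but its counts were equal within each group, so that fit had no spread between libraries to measure. On the shorter lists the differences were -0.02 and -0.14, of the opposite sign. Both genes were singled out after their values were seen. The extra cDC2 summits of Cdkn1a came from a site 11.9 kb upstream (chr17:29079033-29079101), in all 4 cDC2 libraries and no cDC1 library, and from summits inside the gene in single WT libraries. Cdkn2c (p18) had 6, 7, 4 and 6 in cDC1 and 6, 8, 5 and 6 in cDC2, with overlapping ranges and a difference of 0.11 (adjusted p = 0.83). Cdkn1c had 2 to 4 summits and Cdkn2a, which encodes p16 and p19ARF, 2 to 5. The 2 Cdkn2a starts had a summit within 500 bp in all 4 cDC2 libraries each, and in 1 and 2 cDC1 libraries. The share of all windows with such a split is not given, and it was not tested. By number of summits Cdkn2a differed by -0.25 (SE 0.20, limma adjusted p = 0.528), the other way.

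The strength of Cdkn1a sites differed between subsets. No summit lay within 500 bp of its first start, the window with the p53 half-site matches, in any library. All 8 libraries had one at the internal start, 77 bp upstream to 37 bp downstream of it. The strength of that site (chr17:29093692-29093806) was compared as its percentile among the 29645 sites found in all 8 libraries. It stood at 35.7, 43.8, 60.1 and 64.8 in cDC1 and at 24.1, 28.1, 26.9 and 29.1 in cDC2. All cDC1 values were above all cDC2 values, with a difference over both genotypes of -24.0 percentile points (SE 3.34, limma adjusted p = 0.0069). Split by genotype, the site was called between subsets only among KO libraries (limma adjusted p = 0.0192). That KO call was lost under 6 of 13 alternatives. Among WT libraries the subset difference at this site was not called. The site 8.8 kb upstream (chr17:29082093-29082193) stood at 36.2, 34.9, 66.1 and 54.8 and at 12.6, 20.8, 37.8 and 10.3, with overlapping ranges and a difference of -27.6 (adjusted p = 0.0344). In cDC1 both KO libraries were above both WT libraries at these 2 sites, by 22.7 points (SE 4.72) at the internal start and 24.9 (SE 9.49) upstream. Neither passed the test between genotypes (limma adjusted p = 0.377 and 0.541), and the third shared Cdkn1a site, inside the gene, differed by -6.1 points (SE 9.30).

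Of the CDKs, Cdk6, a partner of D-type cyclins, had the most summits of all 42 genes, 22, 20, 21 and 19 in cDC1 and 23, 20, 23 and 21 in cDC2. The ranges overlapped (difference 0.08, SE 0.17, adjusted p = 0.888). Cdk4, the related kinase, had 1 summit in every library, at its promoter. Cdk2, the partner of E-type cyclins, had 0 summits in all cDC1 libraries and 2, 0, 0 and 1 in cDC2. Its start lay within 500 bp of a summit in all 8 libraries, which was nearer to the neighbouring gene Pmel and was counted there.

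None of the 8 cyclins passed between subsets. Of their differences, 6 of 8 were above 0, against 6149 of the 14068 genes tested. The median was 0.22, against 0.00 over all genes tested, and a shift of the cyclins as a set was not tested. Ccnd3, a D-type cyclin of blood cells, had the most summits of the cyclins in all, 9, 9, 15 and 11 in cDC1 and 9, 9, 11 and 10 in cDC2. Its 4 WT libraries all had 9 summits and its 4 KO libraries 10 to 15. Ccnd1 had 7, 8, 6 and 9 and then 13, 10, 8 and 8, and Ccnd2 had 5, 7, 3 and 5 and then 7, 7, 7 and 6, both with overlapping ranges (adjusted p = 0.333 and 0.204). Of the E-type cyclins, which act at the start of S phase, Ccne1 had 6 to 10 summits in cDC1 and 8 to 11 in cDC2 (0.39, SE 0.20, adjusted p = 0.263), and Ccne2 had 1 to 3. The mitotic cyclins Ccnb1 and Ccnb2 had 1 or 2. Ccna2, the S phase cyclin, had 1 summit in every library. Its site at a gene end (chr3:36572093-36572218) was the strongest of all shared sites of these genes, with a mean percentile of 99.8 (SD 0.132, n = 8 libraries).

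No E2F factor or pocket protein passed between subsets by number of summits. Rb1, the retinoblastoma protein, had 9, 8, 9 and 9 in cDC1 and 7, 5, 6 and 8 in cDC2. The ranges met at 8 (difference -0.39, SE 0.18, adjusted p = 0.199). The repressor E2Fs, E2f7 and E2f8, had 8, 9, 9 and 9 against 6, 6, 8 and 8 summits (-0.30, SE 0.17, adjusted p = 0.335) and 4, 4, 6 and 4 against 6 in each cDC2 library (0.36, SE 0.18, adjusted p = 0.236). For both the subset ranges touched. E2f1 had 1 summit in every library, within 1 kb of its gene end, and Rbl2 2 to 4. Rbl1 (p107) had 8, 5, 6 and 6 and then 7, 6, 5 and 5 summits (difference -0.10, adjusted p = 0.85), but on the shorter lists it had 4, 4, 5 and 5 in cDC1 and 2, 1, 2 and 2 in cDC2. There it differed by -1.01 (adjusted p = 4.44e-05), and the 2 genes called were Rbl1 and Aurkb in place of Cdk1 and Mcm3.

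Of the other replication genes, Mcm5 had the most summits, 6, 9, 8 and 6 in cDC1 and 7, 8, 7 and 6 in cDC2, with overlapping ranges. Mcm6 and Mcm7 had 1 or 2, and Mcm2 had 1 in every library. Mcm4 had a summit in cDC1 WT 2 and in no other library. Pcna, the sliding clamp of DNA polymerases, had 1 summit in 7 libraries and 0 in cDC1 KO 1. Its start was within 500 bp of a summit in all 8 libraries, and such summits were given to Pcna or to its neighbour Cds2. Among mitotic genes, Mki67, which encodes the proliferation marker Ki-67, had the most summits, 7, 7, 7 and 7 in cDC1 and 9, 6, 8 and 5 in cDC2. Bub1, a spindle checkpoint kinase, had 4, 2, 1 and 2 and then 1, 1, 1 and 2 (difference -0.48, SE 0.22, adjusted p = 0.203), with overlapping ranges. Without cDC1 WT 2 it passed (-0.66, adjusted p = 0.0488), and on the shorter lists it differed by -0.15 (adjusted p = 0.843). Top2a had 1 summit in every library, and the mitotic kinase Plk1 had 2 in cDC2 WT 2 and 1 in the others. Myc had 11, 12, 13 and 11 summits in cDC1 and 11, 9, 10 and 11 in cDC2 (difference -0.18, SE 0.17, adjusted p = 0.636), and Mycn had 1 or 2.

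Of the p53 genes, Gadd45a, a growth arrest and DNA repair factor, had 7, 8, 8 and 7 summits in cDC1 and 6, 5, 5 and 4 in cDC2. Every cDC2 library lay below every cDC1 library. Gadd45a and Cdk1 were the 2 of 39 genes with that order, against 5.79% of all genes. The Gadd45a difference was -0.51 (SE 0.18, limma adjusted p = 0.081), and it passed when all deposited summits were used (-0.78, adjusted p = 0.0141) or among genes averaging 3 or more summits (adjusted p = 0.0266). On the shorter lists Gadd45a had 3, 4, 4 and 4 summits in cDC1 and 3, 3, 5 and 4 in cDC2, and the difference was -0.01 (adjusted p = 1). Its promoter site (chr6:67037410-67037487) stood at a percentile of 96.3 to 99.3 in all 8 libraries. Mdm2 had 4 summits in 7 libraries and 3 in cDC2 WT 2, and Trp53 had 2 or 3 in each.

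Between genotypes no gene passed. In cDC1 0 of 39 did (0.0498% of all genes tested), in cDC2 0 of 39 (0.0782%), and over both subsets 0 of 39 (0.0426%), by limma with Benjamini-Hochberg adjustment. No gene had an unadjusted p under 0.05 in any of these 3 comparisons. For the difference of the genotype effects between subsets the counts were 0 of 39 and 0% of all genes, with 1 gene, Bub1, at an unadjusted p of 0.0496 (adjusted p = 1). The tests add the variance of rounding to whole summits to that between libraries. It is 0.0833 in squared summits and was carried to the log2 scale at each gene's mean, where it is smaller. Plain limma, without it, called Cdkn1a in cDC2 (-0.26), over both subsets (-0.13) and for the difference of effects (-0.26). In cDC2 the WT libraries had 5 Cdkn1a summits each and the KO libraries 4, and in cDC1 all had 3. The counts were equal within each group, so plain limma had no spread between libraries to measure. Ccnd3 was the 1 gene of 39 whose KO libraries all lay above its WT libraries (0.348% of all genes), with a difference over both subsets of 0.34 (SE 0.18, 95% confidence interval -0.04 to 0.71, adjusted p = 0.937). On the shorter lists the difference of Ccnd3 was 0.12. No gene had the opposite order (0.284% of all genes).

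**Figure D4:**
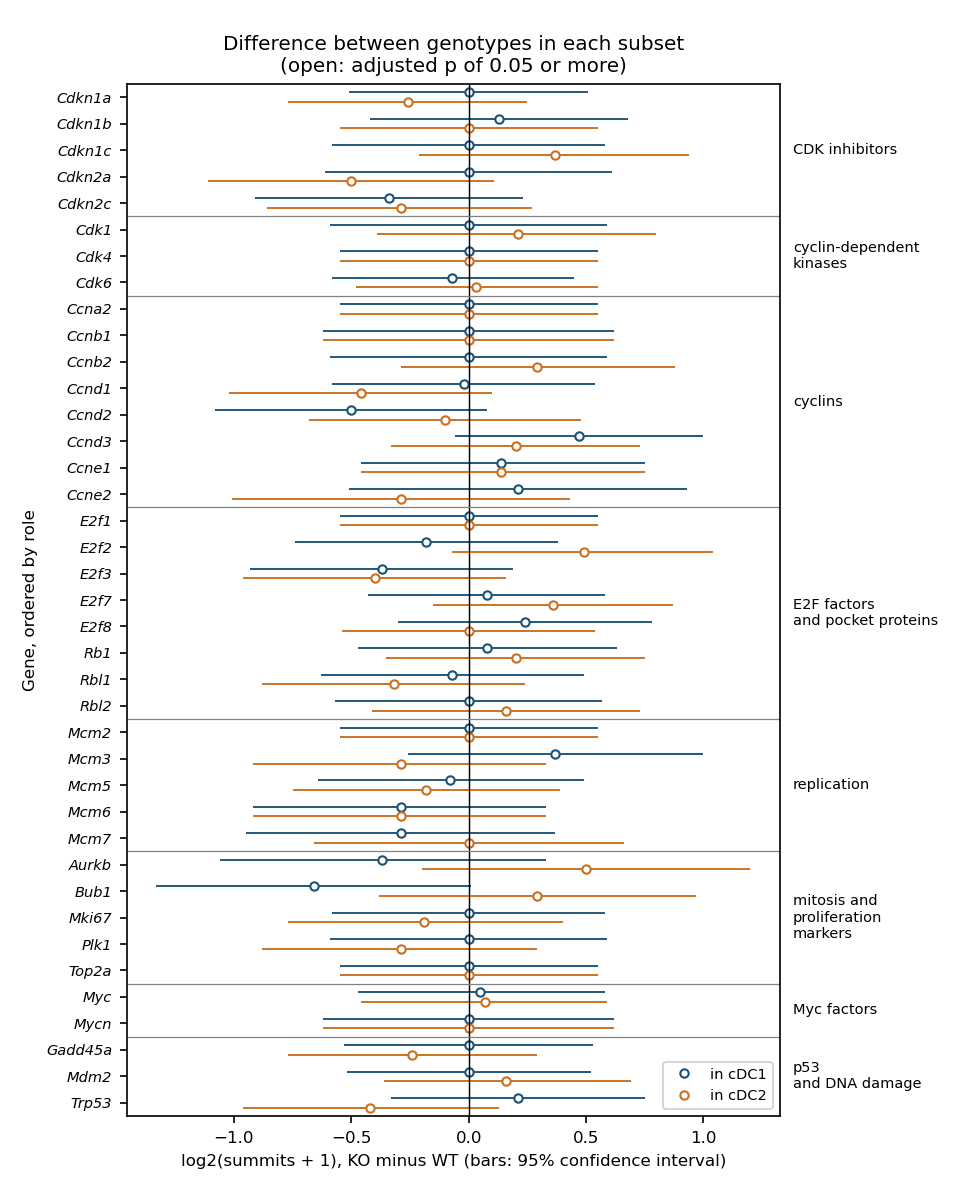
Difference in log2(summits + 1) between KO and WT (x axis) in cDC1 and in cDC2 for the 39 genes tested (y axis, by role), with 95% confidence intervals from limma. All points are open because no gene passed the adjusted threshold, and differences ranged from -0.66 (Bub1 in cDC1) to 0.50 (Aurkb in cDC2).

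The largest genotype differences rested on a few summits. In cDC1 they were those of Bub1 (-0.66, SE 0.32), Ccnd2 (-0.50, SE 0.27), Ccnd3 (0.47, SE 0.25), and then Mcm3 (0.37), Aurkb (-0.37) and E2f3 (-0.37). In cDC2 they were those of Aurkb (0.50, SE 0.33), Cdkn2a (-0.50, SE 0.29), E2f2 (0.49, SE 0.26) and Ccnd1 (-0.46, SE 0.26). Over both subsets E2f3, an activator E2F, had 7, 9, 7 and 5 summits in cDC1 and 8, 6, 5 and 5 in cDC2, lower in KO by 0.39 (SE 0.19, 95% confidence interval -0.78 to 0.01), with overlapping ranges. After E2f3 came Ccnd3 at 0.34, Cdkn2c at -0.32 (SE 0.19) and Ccnd2 at -0.30 (SE 0.19). Some signs turned with the list length. On the shorter lists E2f3 differed by 0.07 over both subsets and 0.13 in cDC1, Mcm3 by -0.29 in cDC1 and Ccnd1 by 0.13 in cDC2. Aurkb, the kinase of chromosome segregation, had 4, 4, 4 and 2 and then 2, 2, 5 and 2 summits, so its cDC2 difference came from KO 1. E2f2 had 8, 7, 7 and 6 and then 6, 6, 11 and 7, also highest in cDC2 KO 1, and Cdkn2a had 5, 4, 5 and 4 and then 4, 5, 4 and 2, lowest in cDC2 KO 2. The smallest adjusted p of these was 0.836.

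Summits of all libraries were then joined into sites by chaining those within 250 bp of each other. The 42 genes held 313 of 112443 sites. Of the 313 sites, 32.3% were found in all 8 libraries, against 26.4% of all sites, and 10 were in all cDC1 and no cDC2 libraries (3.19%, against 4.33% of all sites). The opposite held for 6 (1.92%, against 2.42%). None was in all WT and no KO libraries (0.0694% of all sites) or in all KO and no WT libraries (0.0836%). With all deposited summits the counts were 21 for cDC1, 3 for cDC2, 1 for WT and 2 for KO. Those lists were not cut to 1 length: the longest was that of cDC1 KO 2 and the shortest that of cDC2 WT 2. A longer list can hold a site that a shorter list lacks. The share of all sites with all deposited summits is not given. The excess of cDC1 over cDC2 in these counts therefore cannot be read as particular to these genes.

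The 10 sites of cDC1 belonged to 9 genes. Besides those of Cdk1 and Mcm3, they lay inside Rb1 (chr14:73234701-73234755), Ccnd3 (chr17:47523585-47523743), Mki67 (chr7:135699452-135699518) and Mcm5 (chr8:75126049-75126125). Others lay 3.1 kb from Cdkn2a (chr4:89271384-89271439), 22.9 kb from E2f3 (chr13:30008923-30009087), and 49.6 and 9.6 kb from Myc (chr15:61935685-61935719 and chr15:61975639-61975749). The 6 sites of cDC2 lay inside Rbl1 (chr2:157165375-157165491), Mki67 (chr7:135705235-135705368) and, as a pair, inside Cdk6 (chr5:3461647-3461676 and chr5:3493252-3493330), 1.1 kb from E2f8 (chr7:48865257-48865343), and at the upstream site of Cdkn1a described above. None of these 16 sites lay within 1 kb of a gene end. Mki67 held 1 site of each subset. Exons and introns could not be told apart with the annotation used here, so "inside" means within the gene span.

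At the 101 sites of these genes found in all 8 libraries, the rank percentile of the summit score differed between subsets at 21 sites of 16 genes, by limma with Benjamini-Hochberg adjustment over 29645 sites. It was higher in cDC2 at 10 (10.3% of all shared sites) and lower at 11 (10.4%). In WT alone 8 sites passed (9.04% of all) and in KO alone 4 (5.95%). Over both genotypes 10 sites passed without cDC1 WT 1, 12 without cDC1 WT 2 or cDC2 KO 1 and 13 without either cDC2 WT library. In WT alone leaving out either cDC1 WT library left 0 and either cDC2 WT library 2, and in KO alone leaving out cDC1 KO 1 left 0 and any other KO library 1. The share of all shared sites called with a library left out is not given, so these changes cannot be read as particular to these genes. By position, with all 8 libraries, 2 of 31 sites within 1 kb of a gene end passed (all genes, 12.5%), 7 of 29 inside a gene (24.6%) and 12 of 41 outside (22.8%). The 5 strongest promoter or gene end sites after that of Ccna2, those of Gadd45a, E2f8, Ccnb1, E2f7 and Mcm3, had mean percentiles of 98.3, 97.3, 97.2, 97.0 and 96.2 and did not pass. Sites so near the top of the scale leave little room for a difference in percentile. Their result therefore cannot show whether strong promoters differ between subsets.

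**Figure D5:**
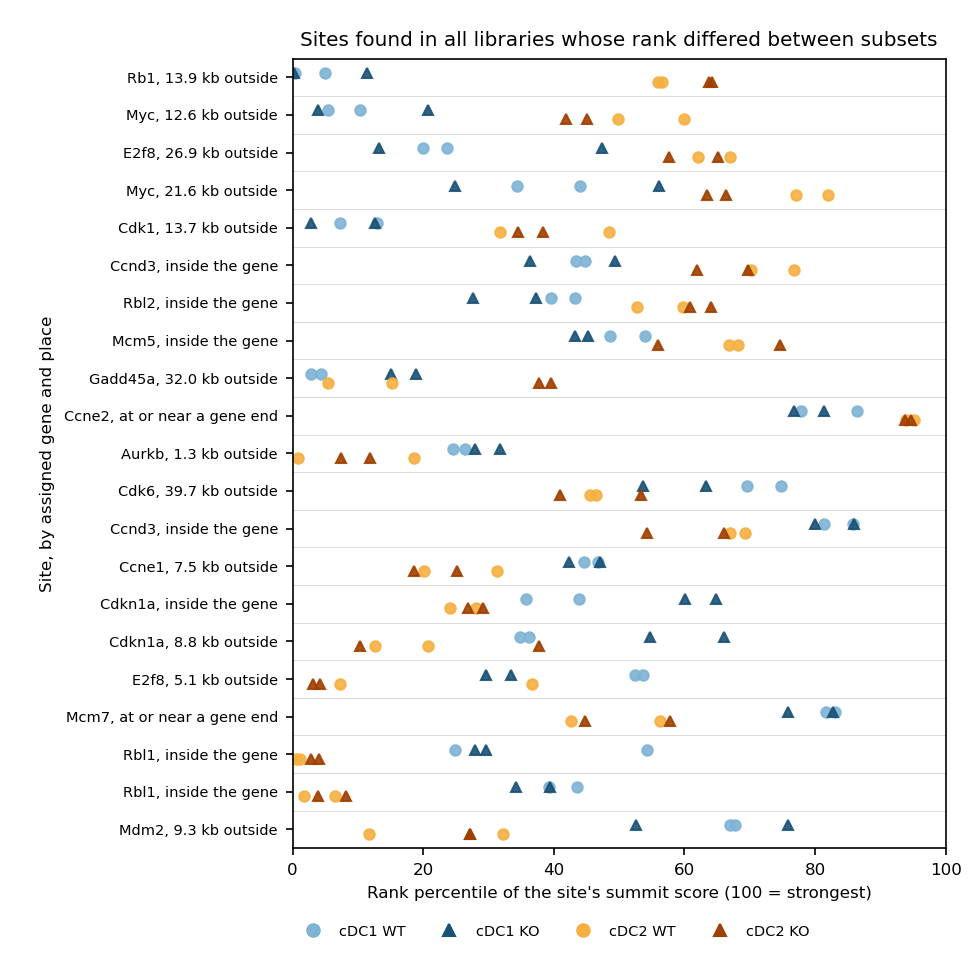
Rank percentile of the summit score (x axis, 100 = strongest of the 29645 sites found in all 8 libraries) in each library for the 21 sites whose rank differed between subsets (y axis, by gene and place), ordered from the highest in cDC2 to the highest in cDC1. The Rb1 site 13.9 kb outside the gene stood at 0.2 to 11.4 in cDC1 and 56.0 to 64.2 in cDC2.

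The largest difference was at the Rb1 site 13.9 kb outside the gene (chr14:73339691-73339932). It stood at 4.9, 0.4, 0.2 and 11.4 in cDC1 and at 56.0, 56.5, 63.8 and 64.2 in cDC2, a difference of 55.9 points (SE 3.55, 95% confidence interval 47.3 to 64.5, limma adjusted p = 0.00107). It was among the weakest shared sites in cDC1 and near the middle in cDC2. The site 12.6 kb from Myc (chr15:62002886-62003034) stood at 5.5, 10.3, 20.8 and 3.9 and then at 59.9, 49.8, 41.9 and 45.1 (39.0 points, SE 4.87, adjusted p = 0.00518). The site 13.7 kb from Cdk1 stood at 7.2, 12.9, 12.6 and 2.8 and then at 31.7, 48.5, 34.5 and 38.3 (29.4 points, SE 4.88, adjusted p = 0.0115). These sites were higher in every cDC2 library than in any cDC1 library. Sites inside Ccnd3 (chr17:47521673-47521755) and Rbl2 (p130, chr8:91082096-91082219) were higher in cDC2 by 26.2 (SE 4.22) and 22.5 points (SE 3.66).

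In the other direction, the site 9.3 kb upstream of Mdm2 (chr10:117720003-117720111) stood at 67.7, 66.9, 52.6 and 75.9 in cDC1 and at 11.7, 32.2, 27.2 and 27.1 in cDC2 (-41.2 points, SE 6.74, limma adjusted p = 0.011). A site inside Rbl1 (chr2:157201593-157201674) stood at 39.2, 43.5, 39.4 and 34.2 and then at 6.5, 1.7, 3.9 and 8.2 (-34.0 points, SE 3.21, adjusted p = 0.00253). The Mcm7 site just downstream of its second start (chr5:138171056-138171262) stood at 83.0, 81.7, 75.8 and 82.7 and then at 56.2, 42.7, 44.7 and 57.8 (-30.5 points, SE 4.79, adjusted p = 0.00976). The summits lay 4 to 210 bp downstream of that start, so the window shown above as Mcm7, second start, covers part of the site. It was 1 of the 2 gene end sites that passed. The cDC2 values lay below the cDC1 values at each of these sites. They, the 5 above that were higher in cDC2 and the internal start of Cdkn1a passed over both genotypes under each of 13 alternatives. As an exception, the Mcm7 site was not matched when chaining used 100 bp.

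Another 12 sites passed, and each lost its call when at least 1 library was left out. Higher in cDC2 were a second Myc site 21.6 kb out (32.4 points), an E2f8 site 26.9 kb out (36.9), and sites of Mcm5 (18.6), Gadd45a (14.2) and Ccne2 (13.8). Lower were a second Rbl1 site (-32.0), an E2f8 site 5.1 kb out (-29.5), the Cdkn1a site 8.8 kb upstream (-27.6), and sites of Ccne1 (-21.4), Ccnd3 (-19.1), Cdk6 (-18.8) and Aurkb (-18.0). The Ccne1 call was lost without cDC1 WT 1 alone (adjusted p = 0.0533). Leaving out cDC1 WT 1 ended 11 of these calls, at adjusted p from 0.0533 to 0.112, and each of the other libraries ended 6 (cDC2 KO 2) to 9 of them. E2f8 and Ccnd3 each had sites that moved in opposite directions.

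No shared site passed between genotypes: 0% of 29645 sites did in cDC1, in cDC2, over both subsets or for the difference of effects, and at an unadjusted p under 0.05 there were 12, 3, 10 and 5 of the 101 sites (11.9%, 2.97%, 9.9% and 4.95%, against 8.77%, 9.52%, 12.4% and 5.59% of all shared sites). The smallest adjusted p among the 101 sites was 0.377 in cDC1, at the internal start of Cdkn1a, 0.338 in cDC2 and 0.209 over both subsets, both at the Gadd45a site 32.0 kb upstream (chr6:67069384-67069452). That site stood at 2.9, 4.3, 18.9 and 15.1 in cDC1 and at 5.4, 15.2, 37.8 and 39.6 in cDC2, with KO above WT in each subset.

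Of 126 further genes of these pathways, chosen for their roles in replication, CDK regulation, mitosis, E2F complexes, p53 responses and the Myc network, 115 were tested. Between subsets 4 had fewer summits in cDC2 and 1 had more, against 5.66% and 4.7% of all genes tested. Cdc45, which activates the MCM helicase, had 3, 3, 3 and 4 summits in cDC1 and 1, 1, 0 and 1 in cDC2 (-1.33, SE 0.22, limma adjusted p = 0.00125). Anapc1, a subunit of the anaphase-promoting complex, had 2, 2, 3 and 3 and then 1 in each (-0.79, adjusted p = 0.00971). Cdc25b, a phosphatase that activates CDKs, differed by -0.75 (adjusted p = 0.0246) and Cenpa, the centromeric histone, by -0.58 (0.0464). Prim2, a primase subunit, had 3, 4, 2 and 4 and then 5, 10, 8 and 8 (1.04, adjusted p = 0.00863). The median difference of the 115 genes was 0.00. None of them passed between genotypes, with 5 in cDC1, 4 in cDC2 and 4 over both subsets at an unadjusted p under 0.05 (4.35%, 3.48% and 3.48%, against 5.27%, 5.64% and 6.23% of all genes tested). Markers of other cells also differed between subsets. Hlf, 1 of the 6 progenitor markers, was higher in cDC2 (0.72), and Pacsin1 (-0.90) and Cox6a2 (-1.08) of 6 plasmacytoid, Vcam1 (-0.75) of 7 monocyte and macrophage, Ebf1 (-0.65) of 6 B cell and Itga2b (-0.66) of 6 erythroid and megakaryocyte markers were lower. The part of other cells in the differences of the cell cycle genes was not tested.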

How the data were processed

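ATAC-seq libraries from sorted splenic cDC1 and cDC2 were aligned, filtered and searched for peaks by the authors, with Bowtie2, SAMtools, MACS2 and MultiQC named in the submitters' processing notes and GRCm38 (mm10) as the build. Versions, peak thresholds, duplicate handling and any shift of reads for the Tn5 cut are not given in the sources used here. Each deposited file lists the summits of 1 library with a score, a −log10 p or q value as MACS2 writes it. No pooled calls or read counts were used, so precision rests on 2 libraries per group.

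Because the number of called peaks differed between libraries, each list was cut to the best scored summits up to the length of the shortest list. Each was given to the nearest protein-coding gene (RefSeq, GRCm38.p6) within 50 kb. Summits per gene were tested as log2(summits + 1) with limma 3.58.1 (R 4.3.3), with a mean per group, 7 contrasts, all 8 libraries in 1 fit, and rounding variance added. Genes averaging 1 or more summits entered the test. A fold on this scale understates changes of genes with few summits. Summits within 250 bp were chained into sites (Python 3.11.15, pandas 2.3.3). Scores depend on depth, so sites found in all 8 libraries were compared by rank percentile, with limma. Alternatives were shorter or full lists, other distances, filters, pseudocounts and chaining gaps, plain limma, a replicate block and each library left out. A variance trend and normal scores of the ranks were added after the data were seen. The scripts were tested on simulated data.

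The named genes are all members, the sites that passed, and the members with the largest genotype differences. The members, like the other lists, were chosen with earlier results of these data known.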

Additional observations from a re-analysis of the deposited data

How the results depend on the processing

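Of 17 alternatives for summits per gene and 13 for ranks, none gave a genotype call among these genes except plain limma, with 1 gene (Cdkn1a) in cDC2, 1 over both subsets and 1 for the difference of effects. Between subsets over both genotypes, 2 genes were called. There was 1 with every gene that had a summit, 1 within 10 kb and 1 at a pseudocount of 0.5, 0 for gene spans with 5 kb on both sides, 4 at a mean of at least 3 summits, and 1 to 3 with a library left out. Plain limma called 2 genes, Cdkn1a and E2f7, in place of Cdk1 and Mcm3. In WT, where 0 genes were called, there was 1 with the shorter lists, 1 with all deposited summits and 1 at a mean of at least 3, 2 with plain limma, and 0 to 2 with a library left out. In KO, also at 0, there was 1 with the shorter lists, 1 with all deposited summits, 1 with plain limma, and 0 to 1 with a library left out. For ranks of shared sites, 21 calls between subsets became 10 to 17 with a library left out. In WT, 8 became 5 with normal scores, 13 with a variance trend and 0 to 9 with a library left out, and in KO 4 became 0 to 5 with a library left out. Leaving out a library leaves 1 library in its group, which is then assumed to vary like the other groups. The counts under these alternatives are of these genes or their sites only. Without the share of all genes or sites called, they cannot show whether these genes lost or gained more calls than others. With all deposited summits, sites in all libraries of one side and none of the other numbered 21 for cDC1, 3 for cDC2, 1 for WT and 2 for KO. These lists differ in length and the share of all sites is not given, so these counts cannot be read as particular to these genes. Signs turned with the shorter lists for Cdkn1a (-0.02) and Cdkn1b (-0.14) between subsets, E2f3 between genotypes over both subsets (0.07) and in cDC1 (0.13), Mcm3 in cDC1 (-0.29) and Ccnd1 in cDC2 (0.13). They turned with all deposited summits for E2f3 (0.08) and Mcm3 (-0.02) in cDC1. Rbl1 between subsets ranged from -0.24 to 0.05 as single libraries were left out, and its sign turned without cDC1 WT 1 (0.05). The causes were not tested.

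The labels do not say whether same-numbered cDC1 and cDC2 libraries share an animal or a batch. Their deviations from the group means correlated at 0.0177 in WT and 0.0288 in KO. With 2 libraries per group and few summits per gene, such correlations cannot settle whether the libraries are paired. With the replicate number as a block, 2 genes were called between subsets over both genotypes, against 2 in WT alone and 1 in KO alone, and 17, 2 and 0 shared sites. The shares of all genes and sites called with the block are not given.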
